A study of Mus musculus with 39 samples.

Results

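The 7 genes described here are known transient 2-cell transcripts other than Zscan4 and Obox: Rfpl4b, Zfp352, Tcstv1, Tcstv3, Tdpoz1, Tdpoz3 and Tdpoz4. They were taken by symbol, and all 7 are among the 55487 genes of the count table, of which 29372 had a count in at least 1 library. RNA of wild-type (WT) mouse embryos was sequenced in 39 libraries, with 1 whole embryo or 1 blastomere per library. Separated embryos are embryos taken apart into their blastomeres, and intact embryos were lysed whole. The 19 embryos fall into 5 separated 4-cell embryos (numbered 2, 3 and 4 in batch 1, and 6 and 7 in batch 2), 4 intact 4-cell embryos (1, 3, 4 and 5), 5 separated 2-cell embryos (1 to 5) and 5 intact 2-cell embryos (1 to 5). All groups but the separated 4-cell embryos belong to batch 1 alone. The embryo is the replicate, so the counts of its blastomeres were summed, and the labels name no strain and do not say whether embryos came from separate animals or how long blastomeres were kept after separation. P-values therefore reflect how far these embryos vary, and part of that variation can be technical. In a library of a whole embryo, fewer cells with a transcript and less of it per cell cannot be told apart.

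The mouse embryo starts large-scale transcription of its own genome at the 2-cell stage, and a burst of transcripts made then is known to be short-lived. Many of these genes are switched on by the homeodomain factors Dux and Obox and lie near or start in retroviral repeats. Rfpl4b belongs to the ret finger protein-like family of RING-type proteins, and its relative Rfpl4 is an oocyte protein. Zfp352 encodes a zinc finger protein of the early embryo. Tcstv1 and Tcstv3 encode small, closely related proteins tied to telomere lengthening in mouse embryonic stem cells. Tdpoz1, Tdpoz3 and Tdpoz4 encode proteins with a TRAF-like (MATH) and a BTB/POZ domain, the architecture of Spop, a substrate adaptor of a ubiquitin ligase.

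In GENCODE M21 on GRCm38, all 7 are protein-coding genes. Rfpl4b lies on the minus strand at chr10:38820541-38821779. Zfp352 lies on the plus strand at chr4:90218820-90225702. Tcstv1 (minus strand, chr13:119893388-119894785) and Tcstv3 (plus strand, chr13:120316878-120318178) share a chromosome, and so do Tdpoz1 (minus strand, chr3:93669333-93676310), Tdpoz3 (plus strand, chr3:93826020-93827117) and Tdpoz4 (plus strand, chr3:93796398-93797510). Tcstv1 and Tcstv3 transcripts are 92.1% identical over 656 aligned bases. Among the Tdpoz members, Tdpoz1 and Tdpoz3 are 88.3% identical, Tdpoz1 and Tdpoz4 78.3%, and Tdpoz3 and Tdpoz4 78.2%. How the authors' counting split reads between such copies is not given in the sources used here. Of the windows of 50 bases in a member's transcripts, the share also found in another gene was 0% for Rfpl4b, 7.09% for Zfp352, 16.8% for Tcstv1, 31.4% for Tcstv3, 41.2% for Tdpoz4, 45.1% for Tdpoz1 and 66.2% for Tdpoz3. With windows of 100 bases the share was 7.79% for Tcstv3, 11.6% for Tdpoz4, 24.2% for Tdpoz1 and 46.7% for Tdpoz3. Levels of these genes are uncertain, and the shares do not measure by how much. The deposited values of the 7 genes were whole numbers in all 39 libraries.

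The RefSeq table of promoters (GRCm38.p6) held 4 of the 7 genes, which are shown because 2 of them, Zfp352 and Rfpl4b, were lower at the 4-cell stage in the results below and the other 2, Tdpoz1 and Tdpoz4, were not. Each window runs from 250 bases before to 50 bases after the annotated start, 5′ to 3′ on the gene's strand. The annotated start of Tdpoz4 falls on the letters ATG and may be that of the coding sequence alone. Its window may therefore not be its promoter, and matches missing from it may say nothing about that promoter. Capitals mark GGATTA on either strand, the letters known to be bound by Obox factors (read as TAATCC on the other strand), and TATAA where it starts 20 to 45 bases before the gene's start.
Zfp352, chr4:90218570-90218869, plus strand: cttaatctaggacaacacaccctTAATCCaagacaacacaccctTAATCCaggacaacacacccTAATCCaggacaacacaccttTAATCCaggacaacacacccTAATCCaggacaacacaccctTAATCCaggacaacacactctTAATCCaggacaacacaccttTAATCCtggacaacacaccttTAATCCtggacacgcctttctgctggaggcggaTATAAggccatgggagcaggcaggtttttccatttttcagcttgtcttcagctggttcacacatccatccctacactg
Rfpl4b, chr10:38821730-38822029, minus strand: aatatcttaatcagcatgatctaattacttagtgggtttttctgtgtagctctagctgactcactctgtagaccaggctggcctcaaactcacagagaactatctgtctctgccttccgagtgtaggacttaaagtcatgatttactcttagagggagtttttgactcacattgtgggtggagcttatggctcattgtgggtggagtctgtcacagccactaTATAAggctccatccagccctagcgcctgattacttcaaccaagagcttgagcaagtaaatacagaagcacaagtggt
Tdpoz1, chr3:93676234-93676533, minus strand: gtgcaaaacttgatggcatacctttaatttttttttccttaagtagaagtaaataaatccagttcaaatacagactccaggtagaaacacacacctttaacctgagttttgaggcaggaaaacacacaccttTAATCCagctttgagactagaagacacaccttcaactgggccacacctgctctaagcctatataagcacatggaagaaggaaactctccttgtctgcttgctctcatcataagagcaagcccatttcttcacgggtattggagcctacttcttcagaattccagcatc
Tdpoz4, chr3:93796148-93796447, plus strand: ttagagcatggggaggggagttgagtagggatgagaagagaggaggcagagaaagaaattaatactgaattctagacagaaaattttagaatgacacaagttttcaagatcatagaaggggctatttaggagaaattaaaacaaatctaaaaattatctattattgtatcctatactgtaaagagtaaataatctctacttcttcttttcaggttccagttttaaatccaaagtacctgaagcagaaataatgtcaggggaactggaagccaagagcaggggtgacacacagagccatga
The Zfp352 window held 9 copies of TAATCC, spaced 20 to 21 bases apart between 227 and 61 bases before the start. GGATTA on either strand was present in 7.06% of 32817 promoter windows of this length, and Zfp352 was the 1 window with as many as 9 (0.00305%). The Tdpoz1 window held 1 copy, and the windows of Rfpl4b and Tdpoz4 none. Zfp352 and Rfpl4b had TATAA 28 bases before the start, where TATAA in the marked range is a feature of 3.90% of windows. Tdpoz1 had TATAA 58 bases before its RefSeq start, outside that range. Its GENCODE start at 93676310 lies between that TATAA and the RefSeq start, so whether it counts depends on the start used. The Nr5a2 motif TCAAGGNCA (1.62% of windows) was searched on both strands and not found in the 4 windows, and CCAAT, the letters bound by Nfya, occurred 1 time in Tdpoz1 (37.4% of windows). These matches describe letters in a window and are no evidence of binding. Within the Tdpoz family the Tdpoz1 window was 99.6% identical to that of Tdpoz9 over 273 bases, while Tdpoz1 and Tdpoz4 aligned over only 33 bases. Tdpoz8 had 1 window 85.8% identical to that of Tdpoz1 over 267 bases. Another Tdpoz8 window was 94.0% identical to that of Tdpoz4 over 300 bases. The windows of Tdpoz1 and Tdpoz4 may start at unlike parts of the genes, so their short alignment does not show unrelated promoters.

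Libraries held 2.02 to 44.0 M counts (1 M is 1e+06 counts) and summed embryos 2.74 to 103 M. Intact 4-cell embryos were the shallowest (2.74 to 4.19 M), so a gene without a count in one of them may reach 0.715 to 1.10 CPM (counts per 1e+06 counts), the level of 3 counts. This limit and the counting intervals below cover counting error only, since reads amplified by PCR without molecular identifiers are not independent molecules, while 95% intervals of log2 fold changes come from the fit over embryos. Batch 2 blastomeres differed from batch 1 4-cell blastomeres in depth (2.02 to 31.6 against 2.40 to 5.23 M counts), in genes with a count (11184 to 16519 against 7939 to 9936) and in counts from mitochondrially encoded genes (4.21 to 7.99% against 15.7 to 27.1%). Of 11 egg and early embryo markers all had counts in every group, with 5571 to 40082 CPM in sum per library. Of 12 markers of cumulus and granulosa cells, 7 had counts in separated 4-cell, 4 in intact 4-cell, 3 in separated 2-cell and 5 in intact 2-cell libraries. Only Inha had no count in any group. These markers summed to at most 105.6 CPM, those of blood to at most 86.8, of sperm to at most 29.8 and of oviduct epithelium to at most 134.8 CPM. Their part in the results was not tested.

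At the 4-cell stage 3 of the 7 genes, Rfpl4b, Zfp352 and Tcstv3, fell in intact embryos, and in separated embryos of batch 1 Tcstv1 fell as well. None of the 3 Tdpoz genes passed the test for a fall in any of these comparisons, so a fall after the 2-cell stage was not shown for them in these embryos. The share of all counts taken by the 7 genes together was 0.00939 ± 0.00572% in intact 4-cell and 0.149 ± 0.0268% in intact 2-cell embryos (mean ± SD, n = 4 and 5). Per blastomere library it was 0.0174 ± 0.00603% in batch 2 and 0.00726 ± 0.00479% in batch 1 of the separated 4-cell embryos, and 0.154 ± 0.0620% in separated 2-cell embryos (n = 8, 12 and 10 libraries, which share embryos). In edgeR's quasi-likelihood test (adjusted p under 0.05 over 14119 genes), 3 of 7 members were lower and 0 higher in intact 4-cell embryos, where 4.99% of all genes tested were lower and 5.41% higher. For these 3 the embryos of the stages also did not overlap, as was so for 7.10% of all genes in the lower direction. The median log2 fold change was -2.32 over the members and 0.00 over all genes tested. In separated embryos of batch 1 it was 4 of 7 lower and 0 higher, against 4.70% lower and 6.40% higher among all genes, with medians of -5.87 and -0.15. The embryos of the stages did not overlap for the same 4, against 8.74% of all genes in that direction.

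**Figure D1:**
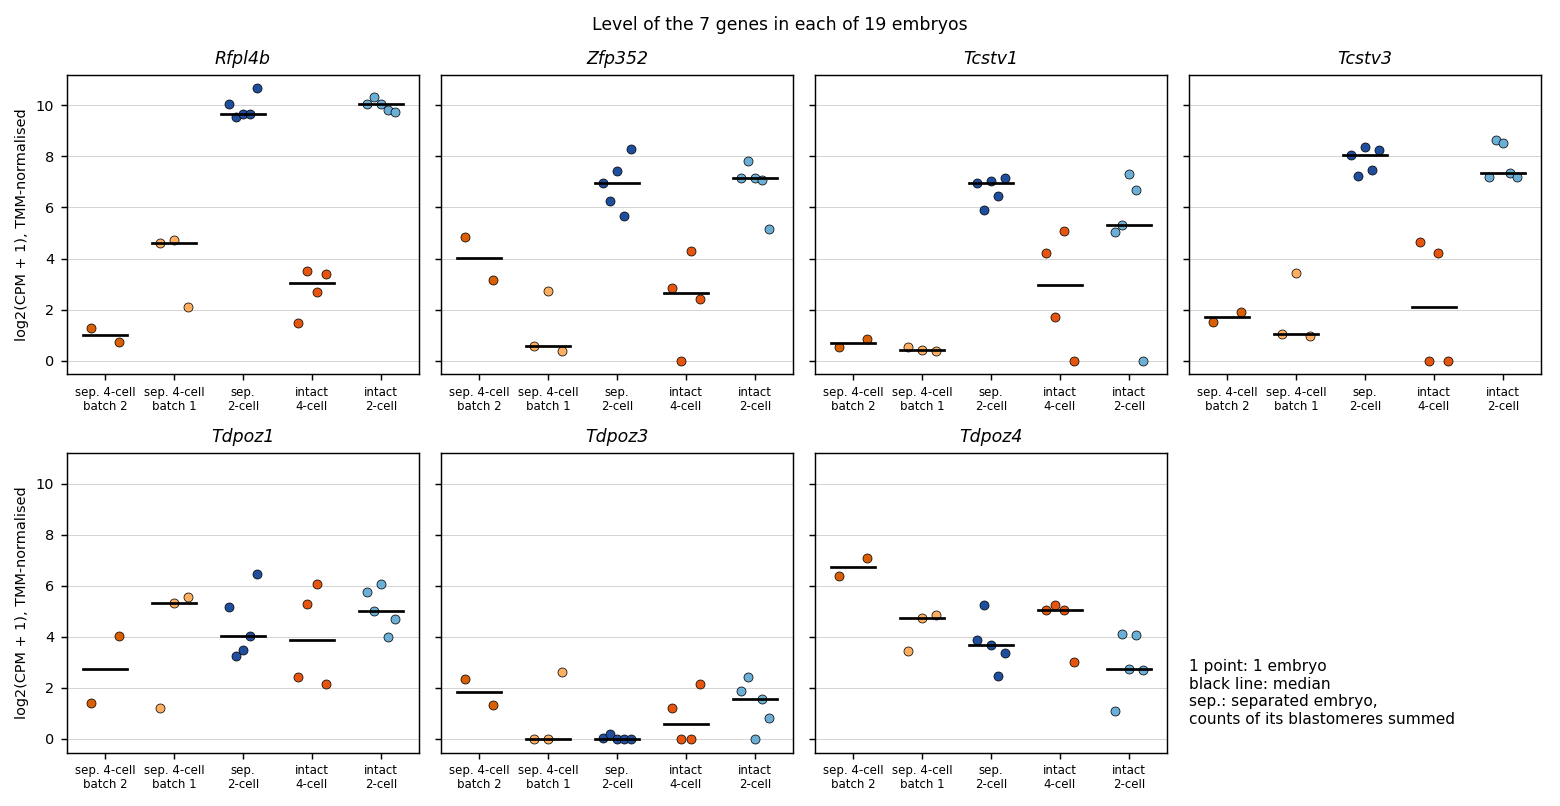
Level of each gene in each embryo, as log2(CPM + 1) on the vertical axis, with separated embryos of batch 2 and batch 1 and the 2-cell stage at the left, and intact 4-cell and 2-cell embryos at the right. Points are embryos and lines medians. Rfpl4b, Zfp352 and Tcstv3 show no overlap between the stages in intact embryos, while the Tdpoz genes overlap.

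Rfpl4b was the most abundant member per transcript length at the 2-cell stage. It had 1.81, 10.4, 5.38 and 9.52 CPM in intact 4-cell embryos 1, 3, 4 and 5, against 1067, 1289.6, 1061, 907 and 863 CPM in intact 2-cell embryos 1 to 5. The highest 4-cell embryo lay far below the lowest 2-cell embryo, and the level was 154-fold lower at the 4-cell stage (log2 fold change -7.27 ± 0.65 SE, edgeR adjusted p = 1.66e-06). By p this was the 3rd of 14119 genes. In separated embryos Rfpl4b had 23.4, 25.3 and 3.24 CPM in 4-cell embryos 2, 3 and 4 of batch 1 and 1.43 and 0.678 CPM in embryos 6 and 7 of batch 2, against 1061, 743, 817, 803 and 1633 CPM in 2-cell embryos 1 to 5. The stages again did not overlap (-5.87 ± 0.69 for batch 1, adjusted p = 5.64e-05, and -9.90 ± 1.01 for batch 2, adjusted p = 4.12e-06).

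Zfp352 had 6.22, 0, 18.6 and 4.40 CPM in intact 4-cell embryos 1, 3, 4 and 5, against 139.7, 228, 141, 134 and 34.3 CPM in intact 2-cell embryos 1 to 5. The groups did not overlap, with the highest 4-cell value at 18.6 and the lowest 2-cell value at 34.3 CPM, and the level was 18.4-fold lower (log2 fold change -4.20 ± 1.06, edgeR adjusted p = 0.0161). Leaving out intact 4-cell embryo 1 or 5 ended this call, with an adjusted p of at most 0.0582. The log2 fold change was -5.36 without intact 4-cell embryo 4 and -5.70 with limma voom. In separated embryos Zfp352 had 0.506, 5.57 and 0.309 CPM in 4-cell embryos 2, 3 and 4 and 27.9 and 7.89 CPM in embryos 6 and 7 of batch 2, against 123, 74.3, 173, 49.6 and 309.8 CPM in 2-cell embryos 1 to 5. All 5 separated 4-cell embryos were below all 2-cell embryos. The fall passed the test at the batch 1 level (-6.09 ± 1.33, adjusted p = 0.0071), while the batch 2 level gave -3.03 ± 1.34 (adjusted p = 0.146). Without separated 4-cell embryo 3 the batch 1 value was -8.52, and without a batch term -4.11.

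Tcstv3 had 24.3, 0, 17.6 and 0 CPM in intact 4-cell embryos 1, 3, 4 and 5, against 144, 400.4, 372, 162 and 147 CPM in intact 2-cell embryos 1 to 5. No 4-cell embryo reached a 2-cell value, and the level was 23.2-fold lower (log2 fold change -4.54 ± 1.13, edgeR adjusted p = 0.0149). Of the 4-cell embryos 2 had no count, and the log2 fold change was -5.45 without intact 4-cell embryo 1 and -7.34 with limma voom. In separated embryos it had 1.09, 9.79 and 0.926 CPM in 4-cell embryos 2, 3 and 4 and 1.83 and 2.72 CPM in embryos 6 and 7, against 265, 149.6, 328, 177 and 307 CPM in 2-cell embryos. The groups were again apart, at -5.96 ± 1.39 for batch 1 (adjusted p = 0.011) and -6.75 ± 1.74 for batch 2 (adjusted p = 0.0149). Without separated 4-cell embryo 3 the batch 1 value was -7.97.

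Its near copy Tcstv1 varied more between intact embryos. It had 17.6, 2.23, 33.0 and 0 CPM in intact 4-cell embryos 1, 3, 4 and 5, against 32.3, 38.8, 158, 103 and 0 CPM in intact 2-cell embryos 1 to 5. The groups overlapped, and the difference did not pass (-2.32 ± 1.24, edgeR adjusted p = 0.226). Intact 2-cell embryo 5, without a count of Tcstv1, had 1137 counts of Tcstv3. In separated 4-cell embryos 2, 3, 4, 6 and 7 Tcstv1 had 0.434, 0.320, 0.309, 0.451 and 0.780 CPM, against 123, 58.2, 131, 85.2 and 143 CPM in separated 2-cell embryos 1 to 5. Here no value of the stages came near the other, with -8.24 ± 1.91 for batch 1 (adjusted p = 0.0106) and -7.45 ± 2.20 for batch 2 (adjusted p = 0.0302). The stage difference of Tcstv1 in separated embryos minus that in intact embryos, the interaction, was -5.91 ± 1.94 log2 units and did not pass over all genes (edgeR adjusted p = 0.409). For the interaction 0 of 7 members passed, and 0.00% of 14119 genes. At an unadjusted p under 0.05 it was 1 member, Tcstv1, and 1228 genes, and DESeq2 and the fit without a count filter each called Tcstv1.

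Tdpoz4 had 31.9, 36.8, 32 and 7.08 CPM in intact 4-cell embryos 1, 3, 4 and 5, against 1.11, 16.3, 5.68, 15.9 and 5.43 CPM in intact 2-cell embryos 1 to 5. The first 3 of these 4-cell embryos lay above all 2-cell embryos and 1 lay among them, and the difference did not pass (log2 fold change 1.60 ± 0.79, edgeR adjusted p = 0.193). In separated embryos Tdpoz4 had 9.98, 25.7 and 27.9 CPM in 4-cell embryos 2, 3 and 4 and 82.5 and 134 CPM in embryos 6 and 7, against 13.7, 36.8, 11.8, 4.57 and 9.23 CPM in 2-cell embryos. Batch 1 overlapped with the 2-cell embryos (0.48 ± 0.85, adjusted p = 0.782). Batch 2 lay above all of them, and Tdpoz4 was higher there by a log2 fold change of 2.83 ± 0.92 (edgeR adjusted p = 0.0445). It was 1 of 7 members higher where 7.78% of all genes were, beside 3 lower (Rfpl4b, Tcstv1 and Tcstv3) where 6.21% were. All 2-cell embryos belong to batch 1, so stage and batch cannot be told apart at the batch 2 level, for Tdpoz4 or the other members. This second level of the comparison was read after the data had been seen.

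Tdpoz1 spread over more than 10 CPM in each group. It had 4.40, 37.9, 67.0 and 3.42 CPM in intact 4-cell embryos 1, 3, 4 and 5, against 52.8, 31.1, 66.4, 15.0 and 25.1 CPM in intact 2-cell embryos 1 to 5. The groups overlapped (-0.43 ± 1.03, edgeR adjusted p = 0.834, 95% interval -2.59 to 1.72). In separated 4-cell embryos 2, 3, 4, 6 and 7 it had 1.30, 39.6, 46.4, 1.68 and 15.3 CPM, against 34.8, 8.60, 10.2, 15.2 and 86.8 CPM in separated 2-cell embryos, also with overlap (-0.10 ± 1.12 for batch 1, adjusted p = 0.974, 95% interval -2.43 to 2.24). Tdpoz3 was the lowest member in intact embryos, with 0 to 3.42 CPM at the 4-cell stage and 0 to 4.44 CPM at the 2-cell stage. In separated embryos it had 0, 0 and 5.09 CPM in 4-cell embryos 2, 3 and 4 and 4.15 and 1.49 CPM in embryos 6 and 7, while the 5 2-cell embryos had 7 counts in all. Neither stage comparison of Tdpoz3 passed (edgeR adjusted p = 0.863 in intact and 0.130 in separated embryos of batch 1), and its fitted fold changes rest on groups with few counts.

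**Figure D2:**
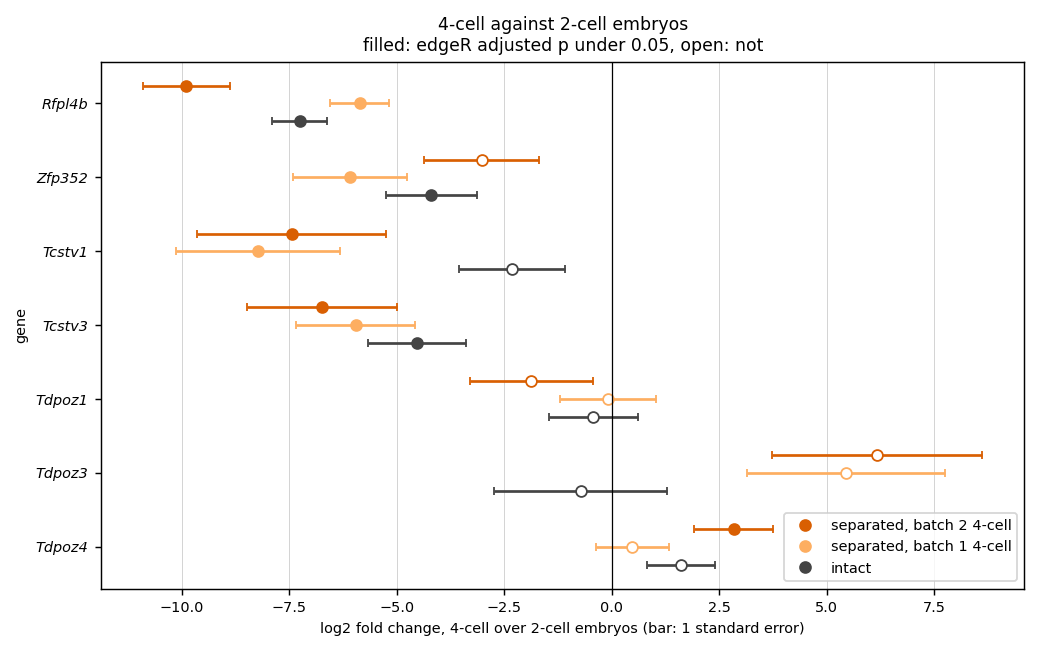
Log2 fold change of the 4-cell over the 2-cell stage for each gene on the horizontal axis, with bars of 1 standard error, for separated embryos of batch 2 and batch 1 and for intact embryos. Filled points passed an adjusted p of 0.05. Rfpl4b and Tcstv3 are filled at the left in all 3 comparisons, and Tdpoz4 is filled at the right for batch 2.

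The make-up of the set differed between the stages. Rfpl4b held 12.8 ± 14.9% of the members' counts in intact 4-cell and 69.0 ± 8.38% in intact 2-cell embryos (mean ± SD, n = 4 and 5). The 3 Tdpoz genes together held 58.9 ± 18.7% in intact 4-cell and 3.17 ± 0.738% in intact 2-cell embryos. In separated embryos the Tdpoz share was 83.1% on average in batch 2 (73.7 and 92.6%), 62.2 ± 31.8% in batch 1 (n = 3) and 2.87 ± 1.23% at the 2-cell stage (n = 5). A share of the members' counts can grow without a change in CPM. CPM are in turn relative to all counts, so a change in an embryo's total RNA would not show in them. The summed level of the 3 Tdpoz genes was 56.3 ± 37.9 CPM in intact 4-cell and 48.9 ± 17.1 CPM in intact 2-cell embryos. In separated embryos it was 119.6 ± 44.1 CPM in batch 2 (n = 2) and 52.0 ± 36.0 CPM in batch 1 (n = 3) at the 4-cell stage, and 46.4 ± 30.7 CPM at the 2-cell stage (n = 5).

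**Figure D3:**
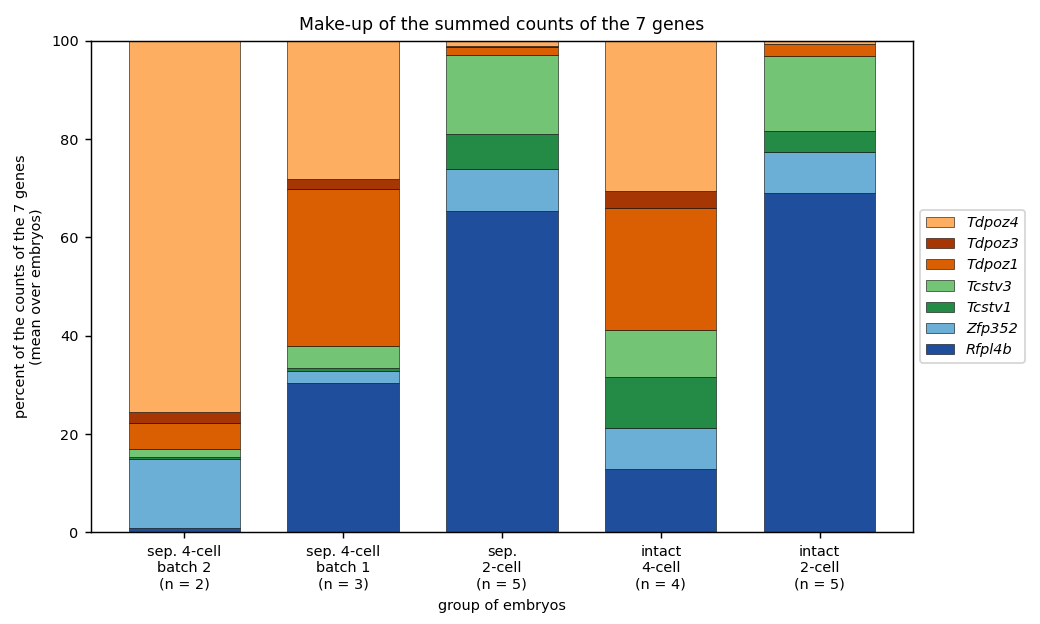
Make-up of the summed counts of the 7 genes, as the mean percent over the embryos of each group on the vertical axis. Rfpl4b holds 69.0% in intact 2-cell embryos, and the Tdpoz genes hold 58.9% in intact and 83.1% in batch 2 separated 4-cell embryos.

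Per kilobase of exon, the order of mean levels in intact 2-cell embryos was Rfpl4b (985 ± 159 CPM per kb, SD, n = 5), Tcstv3 (315 ± 166), Zfp352 (59.5 ± 30.2), Tcstv1 (47.5 ± 45.3), Tdpoz1 (16.2 ± 8.94), Tdpoz4 (7.98 ± 6.14) and Tdpoz3 (1.78 ± 1.57). Zfp352 and Tcstv1, Tcstv1 and Tdpoz1, and Tdpoz1 and Tdpoz4 are neighbours that differ by less than their spread, the larger of the 2 SDs. In intact 4-cell embryos the order began with Tdpoz4 (24.2 ± 12.1 CPM per kb, n = 4), Tcstv3 (13.5 ± 15.9) and Tdpoz1 (12 ± 12.9), and went on with Tcstv1 (9.45 ± 11), Rfpl4b (6.44 ± 3.77), Zfp352 (3.21 ± 3.50) and Tdpoz3 (1.07 ± 1.47). All neighbours in that order differ by less than their spread. In separated 4-cell embryos Tdpoz4 was also first, with 97.3 ± 32.7 CPM per kb in batch 2 (n = 2) and 19.1 ± 8.79 in batch 1 (n = 3), where Rfpl4b (16.4 ± 11.6) was within the spread.

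Taking embryos apart moved none of the 7 genes past the threshold. At the 2-cell stage 0 of 7 differed between separated and intact embryos, where 0.0142% of all genes tested did (2 of 14119). The log2 fold change of Rfpl4b was -0.04 ± 0.44 (95% interval -0.96 to 0.88), which is the narrowest interval of the 7, and those of Tcstv3, Zfp352, Tdpoz1, Tcstv1 and Tdpoz4 lay between -0.29 and 0.78 with standard errors of 0.75 to 1.08. Zfp352 and Tcstv3 turned from 0.11 and 0.00 to -0.05 and -0.19 with the size factors of DESeq2, so neither has a direction here. Tdpoz3 had 0.0254, 0.137, 0, 0 and 0 CPM in separated against 2.63, 4.44, 0, 1.93 and 0.776 CPM in intact 2-cell embryos 1 to 5, and did not pass (p = 0.0205, edgeR adjusted p = 0.308). At an unadjusted p under 0.05, 1 member and 1481 genes differed.

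At the 4-cell stage 0 of 7 differed between separated embryos of batch 1 and intact embryos, and 0.00% of all genes tested. At an unadjusted p under 0.05 it was 2 members, Tcstv1 and Rfpl4b, and 844 genes. Tcstv1 averaged 0.354 ± 0.0694 CPM in separated embryos of batch 1 and 13.2 ± 15.3 CPM in intact 4-cell embryos (log2 fold change -5.21 ± 1.68, edgeR adjusted p = 0.801), with overlap through intact embryo 5, which had no count. DESeq2 and the fit without a count filter called it, at adjusted p = 0.00269 and 0.0133. Rfpl4b averaged 17.3 ± 12.2 CPM in separated embryos of batch 1 and 6.78 ± 3.97 CPM in intact embryos (1.36 ± 0.55, adjusted p = 0.801), but at the batch 2 level the log2 fold change was -2.67 ± 0.71 (adjusted p = 0.0659). The counts of a separated embryo add up several libraries with less input each, so separation, input per library and number of libraries cannot be told apart.

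Among separated 4-cell embryos, Rfpl4b was lower in batch 2 than in batch 1, at 1.43 and 0.678 CPM in embryos 6 and 7 against 23.4, 25.3 and 3.24 CPM in embryos 2, 3 and 4. The groups did not overlap (log2 fold change -4.03 ± 0.77, edgeR adjusted p = 0.00506). It was the 1 member of 7 called, where 2.03% of all genes were and 1.76% were lower. The batches did not overlap for 4 of 7 members, a share to set beside the 44.3% of all genes for which they did not. Without embryo 6 or without embryo 7 the call was lost, with an adjusted p of up to 0.165, but batch 2 is then 1 embryo, which is assumed to vary like the other groups. The log2 fold change was -4.66 without embryo 6 and -3.35 without embryo 3. Tdpoz4 (2.35 ± 1.07, adjusted p = 0.351) and Zfp352 (3.06 ± 1.25, adjusted p = 0.286) had higher values in both batch 2 embryos than in the 3 of batch 1 and did not pass, so the differences ran in both directions. Batch 2 also differed in depth and in mitochondrially encoded counts, as given above, and the part of these in the difference was not tested.

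In single blastomeres of separated 2-cell embryos, Rfpl4b, Zfp352, Tcstv1, Tcstv3 and Tdpoz1 had a count in all 10, Tdpoz4 in 8 and Tdpoz3 in 2. Sisters were most alike in Tcstv3, Rfpl4b and Tdpoz1. Rfpl4b had 923 and 1114 CPM in blastomeres 1 and 2 of embryo 1, 1102 and 521 in embryo 2, 628 and 837 in embryo 3, 621 and 1102 in embryo 4, and 1622 and 1817 in embryo 5. The largest ratio between sisters was 2.11-fold. The SD of log2 CPM between sisters was 0.398 for Tcstv3, 0.461 for Rfpl4b, 0.805 for Tdpoz1 and 1.04 for Zfp352, below the median of 2.44 over 11996 genes tested. It was 2.74 for Tcstv1 and 3.55 for Tdpoz4, above that median. After thinning that median was 1.48, with Tcstv1 (2.08) and Tdpoz4 (2.37) still above it and the others below. With a prior count of 0.5 the median was 3.06, with Tdpoz4 (4.41) above it but Tcstv1 (2.98) below, so the place of Tcstv1 depends on the setting. The genes also differ in level, whose part in these SDs was not tested.

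For Tcstv1 the sisters of 1 embryo stood far apart. Blastomere 1 of separated 2-cell embryo 2 had 1 count (0.0882 CPM) and its sister 2544 counts (66.3 CPM), a ratio of 752 with a counting interval of 135 to 29697. In the other 4 embryos the ratio between sisters was 1.34 to 3.27. That blastomere held 11.3 M counts and 1892 counts of the near copy Tcstv3. Tdpoz4 had no count in blastomere 2 of embryos 1 and 3, while the sisters had 538 and 243 counts (16 and 23.6 CPM), at least 51.3-fold and 97.3-fold higher against a floor of 3 counts. In embryos 2, 4 and 5 both sisters had Tdpoz4, at ratios of 2.13 to 7.73. Zfp352 was higher in blastomere 2 in all 5 embryos and Tcstv3 in blastomere 1, but these numbers only name the sisters.

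**Figure D4:**
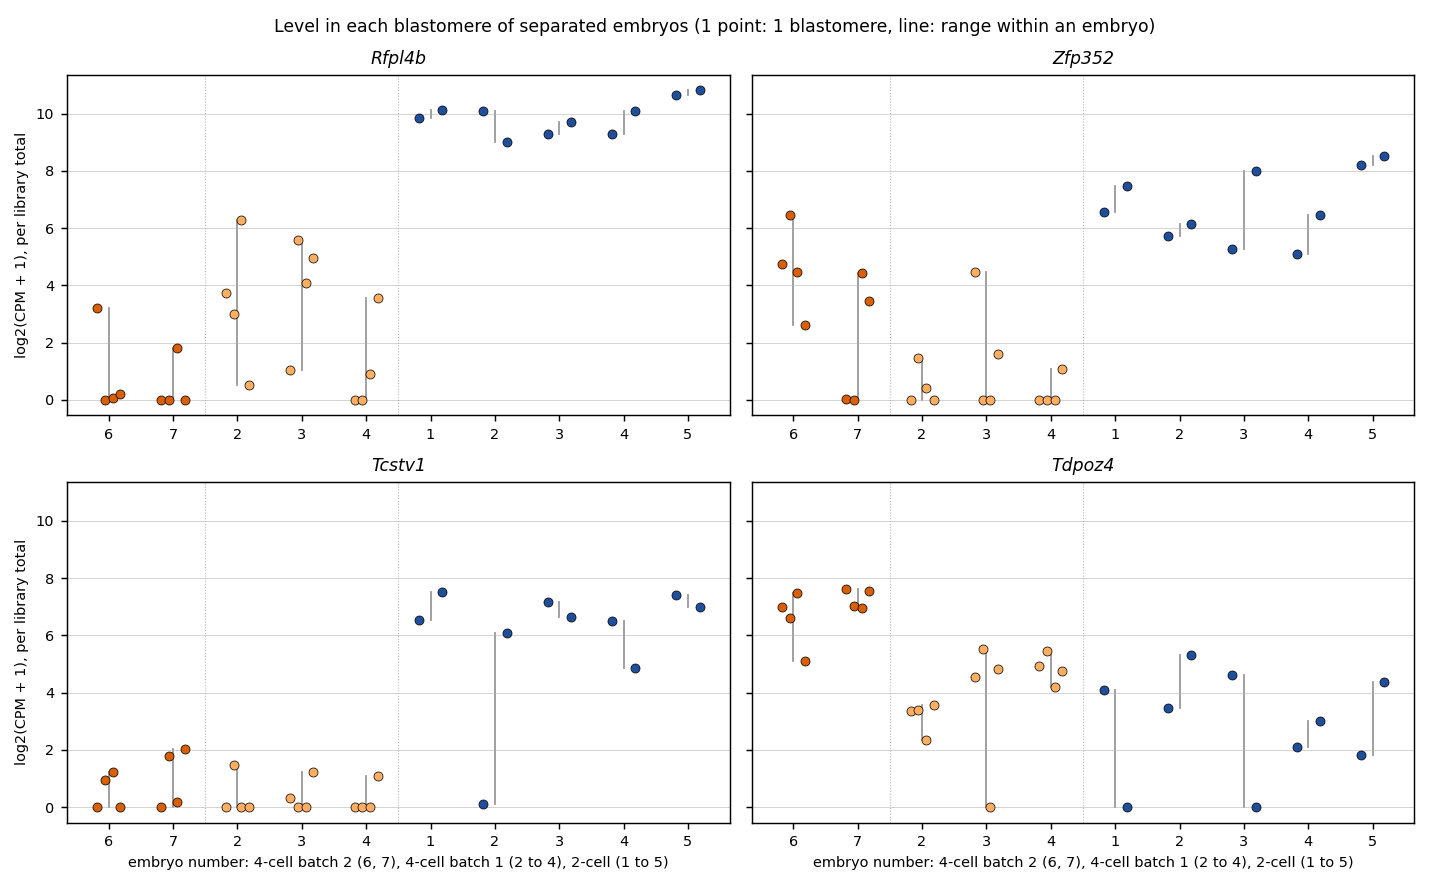
Level of 4 of the genes in every blastomere of the separated embryos, as log2(CPM + 1) per library total on the vertical axis, by embryo: 4-cell batch 2, 4-cell batch 1 and 2-cell from left to right. Lines join the lowest and highest sister. Rfpl4b sisters lie within 2.11-fold at the 2-cell stage, Tcstv1 has 1 blastomere with 1 count in 2-cell embryo 2, and Tdpoz4 is present in all 8 batch 2 blastomeres.

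At the 4-cell stage the residual counts of the falling genes were uneven between sisters, to different degrees. In batch 2, Rfpl4b had no count in 4 of 8 blastomeres, and 1 blastomere held 97.8% of the summed CPM of the 4 sisters in embryo 6 and 100% in embryo 7. The shallow blastomere 2 of embryo 7, without a count, may reach 1.49 CPM against 2.51 CPM in the highest, so that share may be lower. In batch 1 it had no count in 2 of 12, and the highest sister held 79.7, 49.9 and 92.7% in embryos 2, 3 and 4. Zfp352 had no count in 1 of 8 blastomeres of batch 2 and in 7 of 12 of batch 1, where blastomere 1 of embryo 3 had 21.1 CPM while blastomeres 2 and 3 had none. In embryo 6 of batch 2 it had 25.6, 86.3, 21.3 and 5.09 CPM in blastomeres 1 to 4. Tcstv1 had no count in 3 of 8 and 8 of 12 blastomeres, and at most 3.11 CPM in batch 2 and 1.74 CPM in batch 1. Tcstv3 had no count in 1 of 8 and 5 of 12 blastomeres, and its highest sister held 52.5 and 45.8% in embryos 6 and 7 of batch 2, and 80.4, 85.0 and 100% in embryos 2, 3 and 4 of batch 1. The highest blastomere had only 12 counts in embryo 2 and also in embryo 4. The embryo 4 sisters without a count may reach 0.841, 1.25 and 0.861 CPM, against 3.35 CPM in the highest, so its share may be well below 100%.

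Tdpoz4 had a count in all 8 blastomeres of batch 2, at 33.6 to 194 CPM, and in 11 of 12 of batch 1, at up to 45.1 CPM. Tdpoz1 had one in all 8 blastomeres of batch 2 too, at 0.406 to 30.8 CPM, and in 9 of 12 of batch 1. In embryo 7 the sisters had 194, 128, 123 and 185 CPM, within 1.58-fold, and in embryo 6 they had 126, 96.9, 178 and 33.6 CPM. The 1 blastomere without Tdpoz4 was blastomere 3 of embryo 3, whose sisters had 22.4, 45.1 and 27.2 CPM. In batch 2 the SD of log2 CPM between sisters was 0.772 for Tdpoz4 and 1.51 to 3.18 for the other 6, beside a median of 0.876 over 11583 genes. After thinning all blastomeres to 2.02 M counts it was 0.818 for Tdpoz4 and 0.806 (Tcstv1) to 1.97 for the others, so Tdpoz4 was no longer the lowest, and with a prior count of 0.5 it was 0.773 for Tdpoz4 and 1.56 to 3.80 for the others. In batch 1 it was 0.906 to 2.38 for the 7 genes, beside a median of 2.02 over 7215 genes. Tdpoz1 differed more than Tdpoz4 in embryo 4, with 0.280, 56.6, 78.9 and 52.7 CPM in blastomeres 1 to 4.

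No member passed the test of differences between embryos beyond the spread between sisters. In separated 2-cell embryos 0 of 6 members tested passed, where 0.0333% of 11996 genes did. In batch 2 of the separated 4-cell embryos it was 0 of 6, where 0.794% of 11583 did, and in batch 1 it was 0 of 4, where 0.152% of 7215 did. The lowest edgeR p was that of Tdpoz1 in batch 2 (p = 0.022, adjusted p = 0.279), the 1 member under an unadjusted p of 0.05. Members under the count filter were Tdpoz3 at the 2-cell stage, Rfpl4b in batch 2, and Zfp352, Tcstv1 and Tdpoz3 in batch 1.

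Other genes of the same families were set beside the members. Rfpl4, the oocyte relative of Rfpl4b, had 23.9 ± 6.67 CPM in intact 4-cell and 465 ± 243 CPM in intact 2-cell embryos and fell (log2 fold change -4.28 ± 0.52, edgeR adjusted p = 5.73e-05). Zfp353-ps, the pseudogene with which Zfp352 shares windows, had 0.236 ± 0.0837 CPM in separated 4-cell embryos of batch 1 and 107 ± 64.4 CPM in separated 2-cell embryos and fell there (-8.79 ± 2.18, adjusted p = 0.0162). Tdpoz2 (3.53 ± 1.53, adjusted p = 0.136), Tdpoz8 (-0.79 ± 0.92, adjusted p = 0.635) and Tdpoz9 (-2.18 ± 1.25, adjusted p = 0.266) did not pass in intact embryos, and Spop and Spopl did not either. Of 7 relatives tested, 1 was lower in intact and 2 in separated embryos of batch 1, against 4.99 and 4.70% of all genes, with none higher. Tdpoz9 is 97.6% identical to Tdpoz1 over 2328 bases, and Tdpoz8 is 93.8% identical to Tdpoz4 over 724 bases, so these pairs may share reads. The deposited values of Tdpoz1, Tdpoz4, Tdpoz8 and Tdpoz9 were whole numbers in every library, and how shared reads were assigned is not given.

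Of a list of 44 further transcripts of the 2-cell stage, 38 could be tested. In intact 4-cell embryos 17 were lower (44.7%, against 4.99% of all genes) and 1, Obox8, was higher, with a median log2 fold change of -3.89 against 0.00 over all genes. In separated embryos of batch 1 it was 17 lower (against 4.70% of all genes) and 1, Ubtfl1, higher, with a median of -4.72. Zscan4f, of the 2-cell zinc finger cluster, had 0.0647 ± 0.129 CPM in intact 4-cell and 63.0 ± 61.0 CPM in intact 2-cell embryos (-9.77 ± 1.46, edgeR adjusted p = 0.000315). The homeobox genes Obox3 (6.22 ± 4.75 against 500 ± 145 CPM, -6.31 ± 0.78, adjusted p = 5.81e-05) and Obox5 (58.2 ± 24.2 against 1274 ± 454 CPM, -4.45 ± 0.47, adjusted p = 1e-05) fell as well. Duxf3 had a row and no count in any library, so the level of Dux could not be set beside the members.

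Of 15 genes tested among activators of the 2-cell program, 5 were lower (33.3%, against 4.99% of all genes) and 2 higher (13.3%, against 5.41%) in intact 4-cell embryos. All 5 lower ones are Obox and Zscan4 genes already counted in the list before. The 2 higher ones were Dppa2 and Nr5a2. Nr5a2, a nuclear receptor, had 255 ± 76.9 CPM in intact 4-cell and 43.7 ± 11 CPM in intact 2-cell embryos (2.54 ± 0.37, edgeR adjusted p = 0.00022). Of 23 repressors none was lower and 2 were higher, which at 8.70% is near the 5.41% of all genes and no result about the list. Trim28, a corepressor that silences retroviral repeats, had 105 ± 9.11 CPM in intact 4-cell and 20.4 ± 7.22 CPM in intact 2-cell embryos (2.36 ± 0.45, adjusted p = 0.00254). Ncl, the nucleolar protein nucleolin, had 735 ± 173 against 244 ± 110 CPM (1.59 ± 0.31, adjusted p = 0.0031). Rif1, the next by p, did not pass (0.70 ± 0.25, adjusted p = 0.0769). In separated embryos of batch 1 it was 6 lower and 2 higher among activators (40.0 and 13.3%, against 4.70 and 6.40% of all genes), with 5 of the 6 already counted in the list before. Among repressors it was 1 lower and 1 higher (4.35% each), near those shares.

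Over the 19 embryos, each member was set beside 11256 named genes by the root mean square difference of log2 CPM profiles after centring. Rfpl4b was nearest to Oosp3 (1.2 log2 units), Oosp1 (1.30) and Omt2a (1.35), all known as oocyte transcripts, against a median of 4.77 over all candidates. Omt2a had 588 ± 98.8 CPM in intact 4-cell and 17629 ± 5603 CPM in intact 2-cell embryos. Zfp352 was nearest to Cnpy4 (0.952), Tram1 (1.35) and Lratd2 (1.36), and Tcstv3 to Obox3-ps6 (1.39), Arhgef26 (1.63) and Tnfaip8 (1.69). Tcstv1 had no gene nearer than Tmsb15b1 (2.01), followed by Mmp2 (2.08) and Prl8a2 (2.12). Tdpoz4 was nearest to Mat2a (0.801), Klf17 (0.916) and Eif4g1 (0.945). These 3 had higher means at the 4-cell stage. Mat2a, the S-adenosylmethionine synthase gene, had 178 ± 52.4 CPM in intact 4-cell and 40.4 ± 15.6 CPM in intact 2-cell embryos. All 3 passed in intact embryos (edgeR adjusted p = 0.00147 to 0.0147), but none in separated embryos of batch 1 (edgeR adjusted p = 0.217 to 0.468). Their means were highest in batch 2, as with Mat2a at 874 ± 354 CPM there and 132 ± 35.6 CPM in batch 1. Tdpoz1 was nearest to Fbxo47 (1.28), Nf1 (1.36) and Stxbp3 (1.36), and Tdpoz3 to Mtcl1 (1.70), Habp4 (1.72) and Supt7l (1.83). The points share embryos, batch and depth, and the nearness is a description of these libraries.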

How the data were processed

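Expression was measured in 39 Smart-seq2 libraries (reverse transcription from oligo-dT with template switching, then PCR and tagmentation, per the labels' protocols). The authors deposited expected counts per gene, made with Trim Galore 0.6.10, STAR 2.7.3a and RSEM 1.2.28 on GRCm38 (mm10) per the submitters' processing notes. The annotation, the strandedness and the treatment of reads shared between copies are not given in the sources used here. Of the non-zero values 12.6% were not whole. Values were rounded to whole numbers and the counts of sister blastomeres summed, so deeper blastomeres weigh more in an embryo. No 2 libraries were identical.

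All 19 embryos entered 1 edgeR 4.0.16 fit, with TMM scaling, a term for each of the 4 groups and 1 for batch. Low genes were removed with filterByExpr, which left 14119 genes and all 7 members. Tests were quasi-likelihood F-tests, with p adjusted over all genes tested (Benjamini-Hochberg) and a threshold of 0.05. Batch 2 holds separated 4-cell embryos only, so the separated 4-cell level is that of batch 1 unless batch 2 is named, and batch and embryo group cannot be told apart there. The standard error (SE) is the size of the log2 fold change divided by the root of its F statistic, and 95% intervals are 2.09 SE wide on either side. CPM of embryos are TMM-normalised, and CPM of blastomeres are per library total. For differences between embryos, blastomeres were libraries and the embryo the factor of the edgeR test. Spread between sisters is the pooled SD of log2 CPM with a prior count of 2. The edgeR fits were also run on simulated counts as a check of the code, which is no evidence for the results. For the test of differences between embryos, the simulated spread was a fixed value not taken from the data.

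The 7 genes and all lists were chosen with earlier results of these data known. All 7 are named, besides up to 3 genes of each list with the smallest p in intact embryos, family relatives, and the 3 nearest profiles per member. Obox8, Ubtfl1 and Dppa2, and the genes named in the closing section, were named after their values were seen. Alternatives were DESeq2 1.42.0 and its size factors, limma 3.58.1 voom, other count filters, a replicate block, the compared groups alone, no batch term, batch 2 left out, a prior count of 0.5, thinning and each embryo left out, plus 2 chosen after seeing the data: the batch 2 level, and separated 4-cell embryo 7 without its shallow blastomere 2 (2.02 M counts). R 4.3.3 and Python 3.11.15 were used, with Biopython 1.88, matplotlib 3.10.9, scipy 1.17.1, pandas 2.3.3 and numpy 2.4.6.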

Additional observations from a re-analysis of the deposited data

Results flagged for a closer look

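Dixon's test at 95% was applied to 28 sets of embryos of 1 group, 1 for each gene and group, and 5 of them held an embryo far from the others. Chance flags about 1 in 20 groups where values are normally distributed. CPM were not transformed here, and the separated 4-cell sets join both batches, so 5 of 28 cannot be read as an excess. Zfp352 was highest in separated 4-cell embryo 6, of batch 2, at 27.9 CPM, while the other 4 embryos of both batches had 0.309 to 7.89 CPM. Tcstv3 was highest in separated 4-cell embryo 3, of batch 1, at 9.79 CPM, while the other 4 embryos had 0.926 to 2.72 CPM. Tdpoz3 was highest in separated 2-cell embryo 2 at 0.137 CPM, which is 6 counts, against 0 to 0.0254 CPM. Tdpoz4 was highest in the same separated 2-cell embryo 2, at 36.8 CPM against 4.57 to 13.7 CPM. That sum leans on its deeper blastomere 2 (38.4 M counts, 38.9 CPM per library total) over blastomere 1 (11.3 M counts, 10.1 CPM). Tdpoz4 was lowest in intact 4-cell embryo 5, at 7.08 CPM against 31.9 to 36.8 CPM in the other 3.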

How the results depend on the processing

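Every member called lower between stages kept its direction under the alternatives run. Calls were lost for Zfp352 and Tcstv3 in intact embryos with the replicate block (-4.22 and -4.68, adjusted p = 0.0683 and 0.062), and for Zfp352 at the batch 2 level. The block left 1 member called in the intact stage comparison, in place of 3, though numbers give no sign of pairing: 21 same-numbered pairs had correlations of -0.0551 to 0.0246, none over 0.1, and 3 samples correlated best with their own number. For separation at the 4-cell stage and for the interaction, no filter and DESeq2 each called 1 member, Tcstv1 (-5.19 and -5.35, and -5.98 and -5.90), in place of 0. With the compared groups alone, 2 members differed between batches, Tdpoz4 (2.32) besides Rfpl4b. Leaving out embryos gave 0 to 1 members for batch. The share of the members in intact 2-cell libraries was 0.208% without mitochondrially encoded genes. Median sister spread moved to 2.47 in batch 1 with a prior count of 0.5, from 1.76, and in batch 2 to 3.39 with a prior count of 0.5, 1.15 after thinning and 1.84 to 2.47 without an embryo, from 2.42.

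Sign changes were seen in differences that passed no test. For separated against intact 2-cell embryos they were Zfp352 (size factors -0.055, DESeq2 -0.055, limma voom -0.043, without an embryo -0.43 to 0.38), Tcstv3 (size factors -0.19, DESeq2 -0.19, stricter filter -0.052, without batch 2 -0.070, groups alone -0.092, without an embryo -0.16 to 0.25), Rfpl4b (no filter 0.061, without an embryo -0.37 to 0.054) and Tdpoz1 (-1.25 to 0.0070). For separated against intact 4-cell embryos they were Tdpoz1 (size factors -0.075, DESeq2 -0.075, stricter filter -0.0081, no batch term -0.44, batch 2 level -1.73, without an embryo -0.45 to 0.98), Tcstv3 (limma voom 0.71), Tdpoz3 (limma voom -1.31, without an embryo -7.88 to 1.97), Zfp352 (no batch term 0.21, batch 2 level 1.28), Tdpoz4 (no batch term 1.06, batch 2 level 2.01) and Rfpl4b (batch 2 level -2.67). For the interaction they were Tcstv3 (limma voom 0.63), Zfp352, Tdpoz1 and Tdpoz4 (no batch term 0.10, -0.14 and 0.28), and without an embryo Tdpoz1 (-0.10 to 1.33) and Tdpoz3 (-2.16 to 7.90). Without an embryo, the separated stage gave Tdpoz1 -0.63 to 0.76 and Tdpoz3 -2.98 to 7.07, and batch gave Tcstv3 -1.25 to 1.45 and Tdpoz3 -0.17 to 9.42. The causes were not tested.

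Counts over all genes depended on the tool: 737 (replicate block) to 3047 (DESeq2) for the intact stage (1469 here), 711 to 3210 for the separated stage (1568), 0 to 492 and 0 to 379 for separation at the 2-cell and 4-cell stage (2 and 0), 0 to 517 for the interaction (0) and 280 to 1276 for batch (286). Without an embryo they were 798 to 1650, 811 to 1653, 0 to 7, 0 to 1, 0 to 2 and 64 to 337. With size factors the median over all genes shifted by -0.13 for the intact stage, -0.17 for separation at the 2-cell stage and 0.25 for batch. Counts limit Tdpoz3 most, with 873 in all libraries.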

Other observations

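Predicted genes that share windows of 50 bases with the members were also counted. Gm21818, which shares windows with both Tcstv1 and Tcstv3, had 20.01 ± 20.2 CPM in intact 4-cell and 275 ± 217 CPM in intact 2-cell embryos (mean ± SD, n = 4 and 5). It was lower at the 4-cell stage in intact embryos (log2 fold change -3.78 ± 0.88, edgeR adjusted p = 0.00998) and in separated embryos of batch 1 (-6.64 ± 1.17, adjusted p = 0.00163). Gm21761 was lower in separated embryos of batch 1 (-6.31 ± 1.30, adjusted p = 0.00491) and did not pass in intact embryos (-2.92 ± 0.96, adjusted p = 0.0577). Gm9117, Gm5541, Gm9141 and Gm5543, which share windows with Tdpoz1 or Tdpoz4, did not pass in either comparison, with log2 fold changes of -2.75 to 1.18. Gm4982, which shares 66.2% of the windows of Tdpoz3, had 30 counts over all 39 libraries.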
